A study of Mus musculus with 8 samples.

Results

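The FGF, GDNF-Ret and Sprouty genes are the fibroblast growth factors, most of them secreted, their receptors, and the GDNF ligand with its receptors. With them are the inhibitors and ETS transcription factors that these receptors switch on. All 39 genes were taken by name, and the CpGs used were those in a gene body, or up to 5 kb beyond either end, that every one of the 8 libraries covered with 10 or more reads. This gave 1695 of the 441994 such CpGs in the series and 125 of its 36513 tiles, a tile being 1 kb of genome with at least 3 of these CpGs. The assay was RRBS (reduced representation bisulfite sequencing), in which CpG-rich fragments beside restriction sites are read, and which counts, at each CpG, how many reads kept a methylated cytosine. The cells were nephron progenitors, the stem cells of the kidney, sorted by green fluorescence from kidneys of CD1 outbred embryos at E17.5. Every embryo of both groups was heterozygous for the transgene Tg(Six2-EGFP/cre)Amc (Six2 Cre+/tg), in which Six2 regulatory sequence drives EGFP and Cre, so there was no group without the transgene. Transgenic fathers and wild-type CD1 mothers were 8 to 10 weeks old. Pregnant mothers of the restricted group were given 70% of the average daily intake, those of the unrestricted group ate freely, and each group had 4 libraries. Embryos were not separated by sex. Whether 1 litter or several went into a library is not given in the labels, and p-values therefore describe the spread among these 8 libraries, which may be partly technical.

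Secreted fibroblast growth factors bind receptor tyrosine kinases and signal through the RAS-MAPK cascade to ETS factors such as Etv4 and Etv5. Sprouty and Spred proteins and the phosphatase Dusp6 damp the same cascade. In the developing kidney Fgf9 and Fgf20 keep nephron progenitors alive and undifferentiated. Gdnf, made by the progenitors and nearby stroma, binds Gfra1 and Ret on the ureteric bud and drives its branching, and Spry1 restrains that signal. CpG-rich gene starts are usually unmethylated whether or not the gene is used, and methylation inside a gene body does not by itself silence it.

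The sequences below show which CpGs stand behind the statements on gene starts. Each is the 250 bases upstream of a gene start in RefSeq (assembly GRCm38.p6, which shares its coordinates with mm10), from 5′ to 3′, with the CpGs measured in all 8 libraries in capitals. In each role group with a measured CpG there, the promoter at the outer end of its gene with the most such CpGs is shown, and Spry1 is added because its start holds a tile of low p. The entry at the outer end of Gdnf held no measured CpG. Another Gdnf entry, inside the gene (chr15:7813477-7813776), held 7 measured CpGs with no methylated read among 1869.
Fgf4 (chr7:144861136-144861385, + strand): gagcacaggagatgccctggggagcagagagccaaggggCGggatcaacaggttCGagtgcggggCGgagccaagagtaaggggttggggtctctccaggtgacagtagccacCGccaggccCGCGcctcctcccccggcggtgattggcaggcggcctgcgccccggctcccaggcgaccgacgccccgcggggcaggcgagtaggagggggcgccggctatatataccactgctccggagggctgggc
Fgfrl1 (chr5:108693979-108694228, + strand): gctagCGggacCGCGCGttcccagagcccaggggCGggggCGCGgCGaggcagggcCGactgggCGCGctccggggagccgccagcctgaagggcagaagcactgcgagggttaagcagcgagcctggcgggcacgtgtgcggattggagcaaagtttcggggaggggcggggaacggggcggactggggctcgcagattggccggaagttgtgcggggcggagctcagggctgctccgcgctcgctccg
Dusp6 (chr10:99262981-99263230, + strand): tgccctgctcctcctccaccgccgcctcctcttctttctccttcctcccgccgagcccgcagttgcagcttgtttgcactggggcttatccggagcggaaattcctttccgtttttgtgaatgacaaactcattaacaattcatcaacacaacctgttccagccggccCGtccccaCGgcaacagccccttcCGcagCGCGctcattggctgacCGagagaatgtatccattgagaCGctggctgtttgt
Spry1 (chr3:37639697-37639946, + strand): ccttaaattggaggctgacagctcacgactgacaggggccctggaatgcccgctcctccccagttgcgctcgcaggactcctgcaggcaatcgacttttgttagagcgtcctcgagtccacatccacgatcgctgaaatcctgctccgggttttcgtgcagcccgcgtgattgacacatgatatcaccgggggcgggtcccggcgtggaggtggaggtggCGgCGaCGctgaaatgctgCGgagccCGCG
Etv1 (chr12:38779832-38780081, + strand): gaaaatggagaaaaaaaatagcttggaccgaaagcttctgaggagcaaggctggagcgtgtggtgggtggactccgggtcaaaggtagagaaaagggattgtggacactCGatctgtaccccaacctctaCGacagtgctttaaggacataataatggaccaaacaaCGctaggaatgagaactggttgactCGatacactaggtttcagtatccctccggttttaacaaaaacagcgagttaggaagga
Here and below, reads are summed over CpGs, so a read is counted at each CpG it covers. In Fgfrl1, a decoy receptor without a kinase domain, the 11 capital CpGs had no methylated read among 2914. If each count were separate, this would allow a level of up to 0.103%. The 7 CpGs of Dusp6 had none among 2388 reads, which on the same terms would allow up to 0.126%. The 6 CpGs of Spry1 had 3 methylated reads among 1458, the 4 of Etv1 had 1 among 1584, and the 6 of Fgf4 had 8 among 896. CpGs this close share reads, so fewer molecules lie behind the counts and both limits are too low, by an amount not estimated. Of the 36 promoter entries (300 bases, 250 upstream and 50 downstream of a start) that RefSeq gave for 29 members, 30 (83.3%) held CCGG, the site of the enzyme MspI commonly used for RRBS, against 53.5% of 31396 promoters of all genes. CCGG reads the same on both strands. CpGs were measured in 17 of the 36, all 17 held CCGG, and all 17 had a mean level below 5%. Among all genes 94.7% of the 7661 measured promoters were below 5%.

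Summed over all CpG cytosines, the libraries held 16045992 to 37305007 read counts each, a read being counted at each CpG it covers. The median shared CpG had 20 to 44 reads. Restricted libraries 1 and 2 stood apart from the other 6: their mean level fell by 2.24 and 3.28 points when CpGs were weighted by their reads, while in the others it moved by -0.575 to 0.817 points. At mitochondrial CpGs, where little methylation is thought to exist, 0.0221 to 0.0854% of a library's reads were methylated, a scale against which the lowest tile levels below can be read. The sorted marker Six2 had a gene-start window (1.5 kb, from 1000 bp outside to 500 bp inside a gene) at 0.060% ± 0.075 in unrestricted and 0.073% ± 0.022 in restricted libraries (SD, n = 4; 41 CpGs). Windows of other cell types' markers were low as well (4 of ureteric bud from 0 to 6.83%, 4 of stroma from 0 to 4.61%, Tal1 of blood at 0.170% and 0.253%, none measured for endothelium), so they do not tell the cell types apart, and the part of other cells in these results was not tested.

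No methylation difference between the diet groups passed the test at any of the 39 genes. None of 120 tested tiles had an adjusted p under 0.05 in the moderated logistic model of methylated and unmethylated reads, where 6 of 33897 tiles (0.0177%) did in the whole series. The smallest adjusted p of a member tile was 0.737. At an unadjusted p under 0.05 there were 8 member tiles (6.67%), against 6.32% of all tiles. Of these 8, 5 were lower in the restricted group, where 3.32% of all tiles were, and 3 were higher, where 3.0% of all tiles were. Restricted means were lower in 63 and higher in 57 of the 120 tiles, and 51.9% of all tiles were lower. The median difference was -0.011 percentage points in the members and -0.012 in all tiles. Single CpGs gave no call among 631 tested, against 0.0997% of all CpGs, with 27 (4.28%) at an unadjusted p under 0.05 against 5.62% of all. Of these 27, 11 were lower (2.73% of all CpGs were) and 16 higher (2.89%). Restricted means were lower at 333 of the 631 CpGs, against 51.6% of all, and groups did not overlap at 4 of them, against 1.8% of all. Gene-start windows gave no call among 27 tested, against 0.0849% of all windows, and none at an unadjusted p under 0.05, against 6.96% of all. Restricted means were lower in 18 of the 27 windows, against 52.2% of all, and the groups overlapped in all 27, while 1.52% of all windows had groups that did not. With limma on M-values (log2 of methylated over unmethylated reads) the members again had no call, and 0.0% of all tiles, CpGs or windows had one. At an unadjusted p under 0.05 limma gave 10 member tiles against 6.41% of all tiles, 45 member CpGs against 6.94% of all CpGs, and 2 member windows against 6.88% of all windows. With edgeR's quasi-likelihood test they had no call either, against 0.325% of all tiles, 0.048% of all CpGs and 0.132% of all windows. At an unadjusted p under 0.05 edgeR gave 8 member tiles against 5.59% of all tiles, 21 member CpGs against 3.4% of all CpGs, and no member window against 4.47% of all windows. Groups did not overlap in 5 of the 120 tiles (4.17%), those of Fgf3, Fgf11, Fgf18, Fgfr3 and Spry1, against 2.26% of all tiles. Without restricted libraries 1 and 2 the members had no call among tiles, CpGs or windows.

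**Figure D1:**
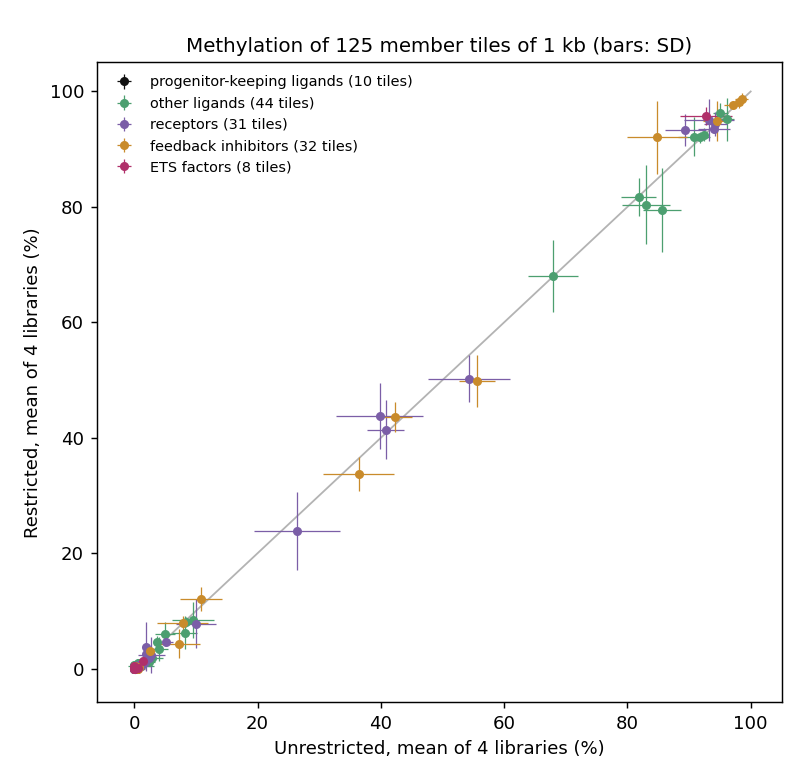
Methylation (%) of the 125 member tiles in the unrestricted group (horizontal axis) and the restricted group (vertical axis), as means of 4 libraries with SD bars, coloured by role; the grey line marks equal levels. Most of the tiles sit near 0, a smaller set near 90%, and points lie along the line.

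As a group, the members were less methylated than the measured genome. Their mean CpG level was 6.94, 7.06, 6.96 and 7.15% in unrestricted libraries 1 to 4 and 7.13, 6.97, 7.07 and 7.0% in restricted libraries 1 to 4. The groups overlapped, and the means were 7.03% ± 0.10 and 7.04% ± 0.07 (SD, n = 4), a difference of 0.015 points. Over all gene bodies with their flanks the means were 11.80% and 11.74%, and over all shared CpGs 16.22% and 16.16%. Of the 1695 member CpGs, 1506 (88.8%) lay below 5%, against 76.5% of all CpGs, 100 lay between 5 and 80%, and 89 lay above 80%. In 1064 of them no read in any library was methylated. Weighting CpGs by their reads gave 7.19% and 6.43%, a difference of -0.758 points, and without restricted libraries 1 and 2 the weighted difference was -0.276 points. Over all shared CpGs the weighted levels ran from 15.9 to 17.2% in unrestricted and from 12.7 to 16.3% in restricted libraries. A lower weighted level was thus not particular to the members. Gene by gene, the mean was lower with restriction in 20 of 39 members, and the groups overlapped in all 39.

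**Figure D2:**
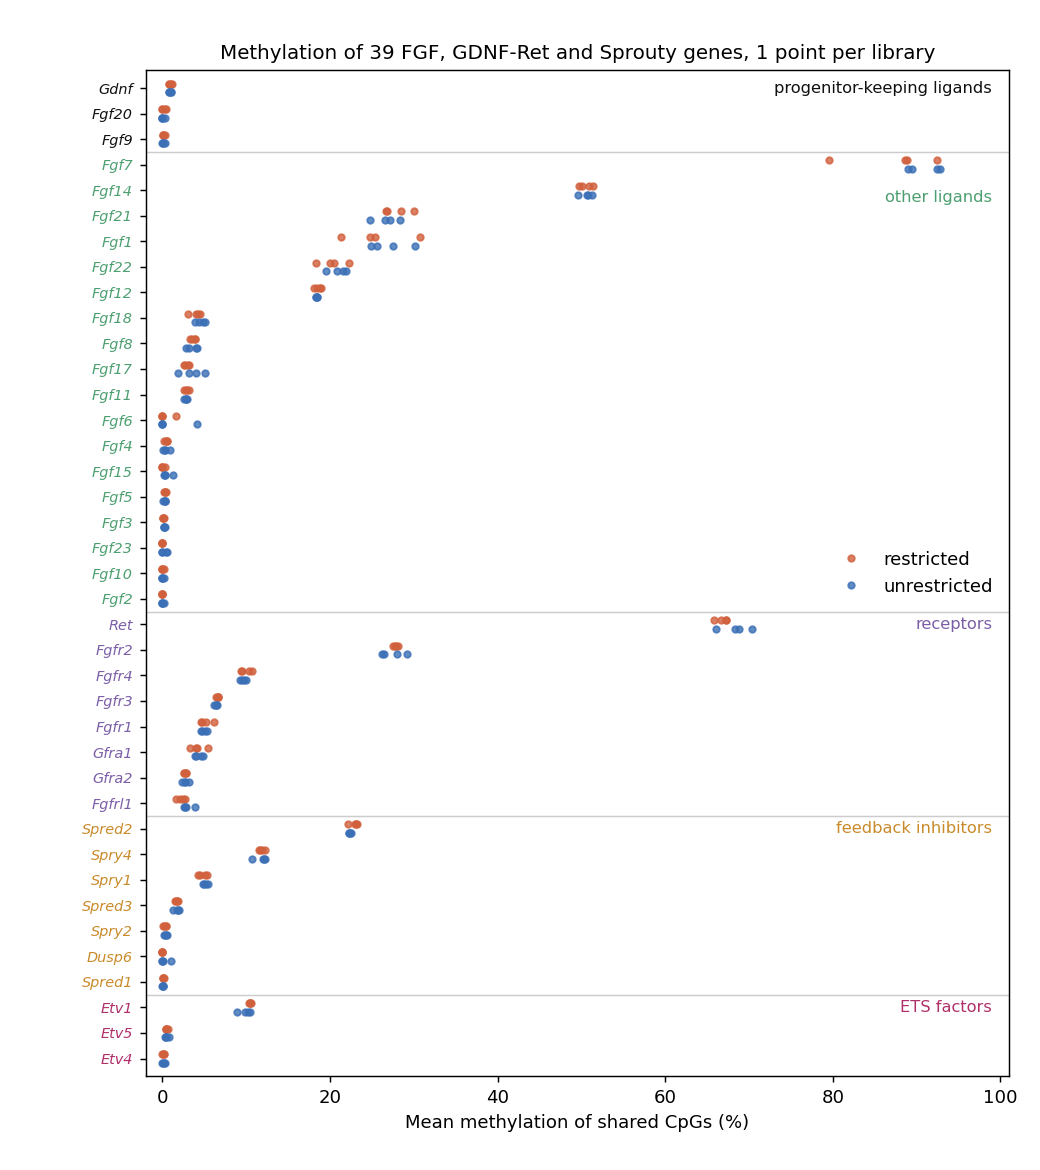
Mean methylation (%) of the shared CpGs of each of the 39 genes, 1 point per library, in order of level within each role group; restricted libraries are orange and unrestricted blue. Fgf7, Ret and Fgf14 are the 3 genes with group means above 50%, and the restricted and unrestricted points of every gene overlap.

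Position along the gene went with the level. RefSeq gives the strand of 29 members, and 20 of these had CpGs between 1000 bp upstream and 500 bp downstream of the start. There 423 of 424 CpGs were below 5%, with a mean of 0.285% against 1.27% in all genes. The mean was 0.838% from 500 to 2000 bp, 6.68% from 2000 to 10000 bp and 30.9% beyond 10000 bp (243 CpGs of 12 genes, 67 of them above 80%), where all genes had 28.2%. Upstream, from 5000 to 1000 bp before the start, it was 3.54% (134 CpGs of 9 genes) against 12.6% in all genes. In the bin around the start the groups had 0.301% ± 0.086 (unrestricted) and 0.268% ± 0.038 (restricted; SD, n = 4), and in the farthest bin 30.8% ± 0.302 and 31.0% ± 0.196. CpGs of a gene share fragments and reads, so these are descriptions and were not tested.

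**Figure D3:**
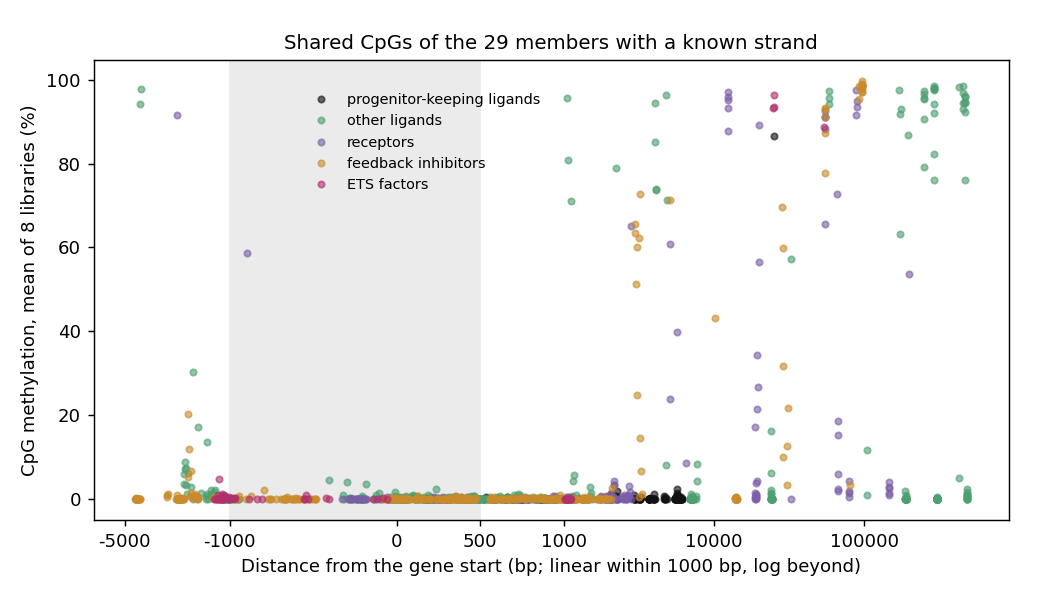
Methylation (%, mean of 8 libraries) of each shared CpG of 29 members against its distance from the gene start (bp, linear within 1000 bp and logarithmic beyond), coloured by role; grey marks the window from -1000 to 500 bp. 423 of the 424 points in the grey window are below 5%, and points above 80% lie mostly far inside genes.

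The progenitor-keeping ligands Fgf9, Fgf20 and Gdnf were almost free of methylation. Of their 179 CpGs, 178 were below 5%, and all 10 of their tiles were, the highest at 0.731%. The mean was 0.625% ± 0.074 in unrestricted and 0.642% ± 0.122 in restricted libraries (SD, n = 4), against 8.38% ± 0.10 and 8.32% ± 0.16 for the 605 CpGs of the other 18 ligands. The exception was a single Gdnf CpG 25319 bp inside the gene (chr15:7835367), singled out after its value was seen. It had 86.9% in unrestricted and 86.5% in restricted libraries, at 11 to 35 reads each. Without weighting, that CpG carries most of the group's mean. Low levels were not particular to these ligands. Fgf2, Fgf10, Fgf23, Fgf3, Fgf5, Fgf15, Fgf4 and Fgf6 had gene means of 0.022 to 0.729% over both groups, below Gdnf at 0.935%. The remaining ligands were higher, from Fgf11 at 2.81% to Fgf7 at 89.1%. Among them Fgf11, Fgf12 (18.5%) and Fgf14 (50.5%) belong to a subfamily that stays inside the cell. The mean of the other 18 is therefore not one of secreted ligands alone. The measured CpGs also lay at different places in different genes, and the part of this was not tested.

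Of the 113 CpGs of Gdnf, all but the one above lay in 6 tiles that adjoin one another at its start. The tile of smallest p (chr15:7813001-7814000, 27 CpGs, gene body) stood at 0.106, 0.237, 0.138 and 0% in unrestricted libraries 1 to 4 and at 0% in all 4 restricted libraries. The difference of -0.120 ± 0.049 points (SE) rested on 5 methylated reads among 6931 (p 0.0270, adjusted p 0.772, moderated logistic model). The unrestricted library at 0 made the groups overlap. In unrestricted libraries 1 to 3 the levels, on these few reads, were above the mitochondrial rates of the same libraries (0.0479, 0.0695 and 0.0221%). Gdnf had no window with 3 shared CpGs. Its tile of smallest p holds a RefSeq promoter entry (chr15:7813477-7813776), whose 7 measured CpGs had no methylated read among 1869. In the next tile (chr15:7812001-7813000, 13 CpGs) the restricted mean was the higher, at 0.70% ± 0.561 against 0.304% ± 0.438 (SD, n = 4).

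Fgf9 (46 CpGs) and Fgf20 (20 CpGs) lay near 0 throughout. The Fgf9 tile of smallest p (chr14:58075001-58076000, 7 CpGs) had 0, 0.873, 0.694 and 0% in unrestricted libraries 1 to 4 and 0% in the 4 restricted ones, on 3 methylated reads of 1295 (p 0.0638, adjusted p 0.773). The single Fgf20 tile (chr8:40286001-40287000, 20 CpGs) had a methylated read only in unrestricted library 4 (0.267%) and in restricted libraries 2 and 3 (0.337% and 0.250%). Its means were 0.067% ± 0.134 and 0.147% ± 0.173 (SD, n = 4; p 0.744). Their gene-start windows stood at 0.10% and 0.116% for Fgf9 (4 CpGs) and at 0.045% and 0.267% for Fgf20 (14 CpGs), unrestricted first. In neither gene did the groups separate.

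The other 18 ligands ranged from near 0 to about 90%. The lowest means were those of Fgf2 (0.045% unrestricted, 0% restricted) and Fgf10 (0.036% and 0.049%), a lung and limb bud growth factor. The highest were those of Fgf7 (90.9% and 87.4%), the keratinocyte growth factor, and Fgf14 (50.6% and 50.5%), which stays inside the cell and binds sodium channels. Fgf7 had only 6 shared CpGs and Fgf14 had 26, and neither had a gene-start window with 3 of them. Within Fgf14, a tile of 11 CpGs 485186 bp inside the gene stood at 0.646% and 0.931%, and tiles of 5 and 6 CpGs stood at 90.8 to 92.5%. The low Fgf14 tile holds the RefSeq promoter entry of the gene (chr14:124192497-124192796), in which no CpG was measured. The intracellular Fgf12 had an unmethylated start (3 CpGs, 0.463% and 0% in the window) and 3 tiles between 174742 and 458742 bp inside the gene at 81.7 to 96.3%. Another 3 tiles in the same stretch, of 26, 23 and 14 CpGs, stood at 0 to 0.194%. The tiles of 26 and 23 CpGs hold RefSeq promoter entries of Fgf12 (chr16:28564446-28564745 and chr16:28446026-28446325). In Fgf11, of the same subfamily, the start window stood at 0.369% and 0.578%, and a tile 4443.5 bp inside the gene stood at 68.0% in both groups. Of the 13 ligand windows measured, 12 were below 5%, and Fgf1 was the exception at 18.8% and 16.4% (3 CpGs, with the end chosen by CpG number because its strand was not given).

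Fgf3, a growth factor of inner ear and tail bud, had the ligand tile of smallest p (chr7:144839001-144840000, 60 CpGs, centred 888.5 bp downstream of the start). The tile stood at 0.224, 0.292, 0.478 and 0.325% in unrestricted libraries 1 to 4 and at 0.171, 0.161, 0 and 0.193% in restricted libraries 1 to 4. All restricted libraries were below all unrestricted ones. The means were 0.330% ± 0.108 and 0.132% ± 0.089 (SD, n = 4), a difference of -0.198 ± 0.070 points (SE) on 42 methylated reads among 17001 (p 0.0252, adjusted p 0.768).

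Fgf18, a growth factor of bone and cartilage, had a tile in its gene body (chr11:33123001-33124000, 19 CpGs) at 1.90, 1.83, 3.69 and 2.34% in the unrestricted libraries and at 1.18, 1.1, 1.48 and 1.05% in the restricted ones. The groups did not overlap, with a difference of -1.24 ± 0.443 points (SE; p 0.0439, adjusted p 0.773). The tile downstream of Fgf11 (chr11:69795001-69796000, 27 CpGs), which also overlaps the acetylcholine receptor gene Chrnb1, had 0.850 to 0.892% unrestricted and 0.249 to 0.620% restricted (p 0.0499, adjusted p 0.773). The largest ligand difference was at Fgf7 (chr2:126035001-126036000, 3 CpGs, also within Fam227b), with 84.2, 87.8, 82 and 88.5% unrestricted and 86.9, 69.4, 80.8 and 81.0% restricted. There the low value was that of restricted library 2, the groups overlapped, and p was 0.186. Among ligand tiles with at least 5 CpGs the largest difference was 1.44 points, at Fgf14 (chr14:124211001-124212000, 90.8% ± 2.63 and 92.2% ± 3.42; SD, n = 4).

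The ligand CpG of smallest p lay in Fgf14 (chr14:124251643), singled out for the call given here. It had 14.3, 0, 4.35 and 21.2% in unrestricted libraries 1 to 4 and 0% in all restricted ones, on 11 methylated reads among 199, and its adjusted p was 0.414. Leaving out unrestricted library 2, which stood at 0, gave it an adjusted p of 0.0267, a difference of -13.3 points. It was the single member unit called in any leave-one-out fit. With all 8 libraries 0.0997% of all CpGs were called, and the share in the fit without unrestricted library 2 is not given here.

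Among the 8 receptors, the mean level was 8.63% ± 0.14 unrestricted and 8.72% ± 0.36 restricted (SD, n = 4; 384 CpGs). The 6 windows measured, those of Fgfr1, Fgfr3, Fgfr4, Fgfrl1, Gfra1 and Gfra2, were all below 5%, the highest being Fgfrl1 at 2.87% and 2.56%. That level came from a single upstream CpG of Fgfrl1 (chr5:108693332, 897 bp before the start), singled out after its value was seen, at 66.7% and 50.5%. It was the one CpG of 424 around the member starts above 5%. Fgfr2, the receptor of Fgf7 and Fgf10, had tiles 89307.5 and 54307.5 bp inside the gene at 94.3% and 89.4% unrestricted (94.4% and 93.3% restricted). Nearer its start, 5307.5 bp inside, a Fgfr2 tile stood at 39.8% ± 7.08 and 43.8% ± 5.78 (SD, n = 4; p 0.257).

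Fgfr3, which restrains growth of the skeleton, had the member tile of smallest p (chr5:33722001-33723000, 34 CpGs, centred 776.5 bp inside the gene). It stood at 0, 0.105, 0 and 0% in unrestricted libraries 1 to 4 and at 0.298, 0.126, 0.179 and 0.344% in restricted libraries 1 to 4. Each restricted library was above each unrestricted one. The means were 0.026% ± 0.053 and 0.237% ± 0.101 (SD, n = 4), a difference of 0.210 ± 0.057 points (SE) on 12 methylated reads among 9628 (p 0.0105, adjusted p 0.737). Mitochondrial rates ran from 0.0221 to 0.0695% in the unrestricted and from 0.0242 to 0.0854% in the restricted libraries. Deeper in the gene a tile of 5 CpGs stood at 94.1% and 93.5%.

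Fgfr1, which with Fgfr2 relays FGF signals in nephron progenitors, had a gene body tile (chr8:25564001-25565000, 15 CpGs) in which restricted library 1 alone was high. It stood at 10.2% there, at 1.56 to 1.96% in restricted libraries 2 to 4 and at 1.48 to 2.29% in the unrestricted ones. With that library the difference was 1.92 ± 2.13 points (SE; p 0.0514, adjusted p 0.773), and without it -0.200 points. In the same tile the Fgfr1 CpGs at 25564422 and 25564431 each had 10.8% in restricted library 1 and 0% in the other 7 libraries. Another Fgfr1 tile, in a flank (chr8:25514001-25515000, 11 CpGs), varied among libraries of a group more than between the groups, from 20.0 to 33.5% unrestricted and from 17.2 to 29.8% restricted. The tile of Fgfr4 at its start (chr13:55153001-55154000, 10 CpGs) had 2 methylated reads among 2999, both in the restricted group (p 0.101). Beyond the other end of Fgfr4 a CpG (chr13:55172362), chosen as the receptor CpG of smallest p, had 41.7, 34.0, 21.4 and 41.5% unrestricted and 19.4, 19.1, 25.0 and 12.9% restricted, with overlap through unrestricted library 3 (p 0.00399, adjusted p 0.573).

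Ret, the receptor tyrosine kinase that answers Gdnf in the ureteric bud, was measured at only 8 CpGs, with group means from 16.4 to 95.8%, and had no gene-start window with 3 of them. Its mean was 66.1, 68.8, 68.4 and 70.3% in unrestricted libraries 1 to 4 and 67.2, 66.7, 65.8 and 67.2% in restricted libraries 1 to 4. The groups overlapped, with means of 68.4% ± 1.75 and 66.8% ± 0.69 (SD, n = 4). Its gene body tile (chr6:118187001-118188000, 3 CpGs) had 45.3, 60.1, 53.2 and 58.3% unrestricted and 53.8, 44.4, 50.6 and 52.1% restricted, a difference of -4.02 ± 3.89 points (SE; p 0.283). The Ret tile in a flank (chr6:118201001-118202000, 3 CpGs) stood at 93.3% and 95.1% (p 0.374). Its co-receptors were low, with means of 4.33% and 4.25% for Gfra1 and 2.72% in both groups for Gfra2. Depth at the Ret CpGs was 10 to 62 reads per library.

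Feedback inhibitors had mean levels of 6.75% ± 0.12 unrestricted and 6.75% ± 0.14 restricted (SD, n = 4; 450 CpGs of 7 genes). Of their 6 windows the highest was that of Spred3, at 0.541% and 0.360%. Spry1, the inhibitor that restrains Ret in the kidney, had 4 tiles that ran from unmethylated at the start to intermediate at the far end. Its start tile (chr3:37639001-37640000, 13 CpGs, which holds the printed bases) had 3 methylated reads among 3159, all in restricted library 1 (0.721%), with 0% in the other 7 libraries (p 0.0262, adjusted p 0.769). The tile centred 2553.5 bp from the start stood at 36.4% ± 5.76 and 33.7% ± 2.95 (SD, n = 4). The next, centred 3553.5 bp from it (chr3:37643001-37644000, 5 CpGs), had 54.2, 54.3, 53.9 and 60% in unrestricted libraries 1 to 4 and 53.9, 45.6, 53.7 and 46.3% in restricted libraries 1 to 4. All restricted libraries of this Spry1 tile were below all unrestricted ones, but the nearest pair, unrestricted library 3 and restricted library 1, stood at 53.95% and 53.92%. The difference was -5.71 ± 2.70 points (SE; p 0.103, adjusted p 0.773).

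**Figure D4:**
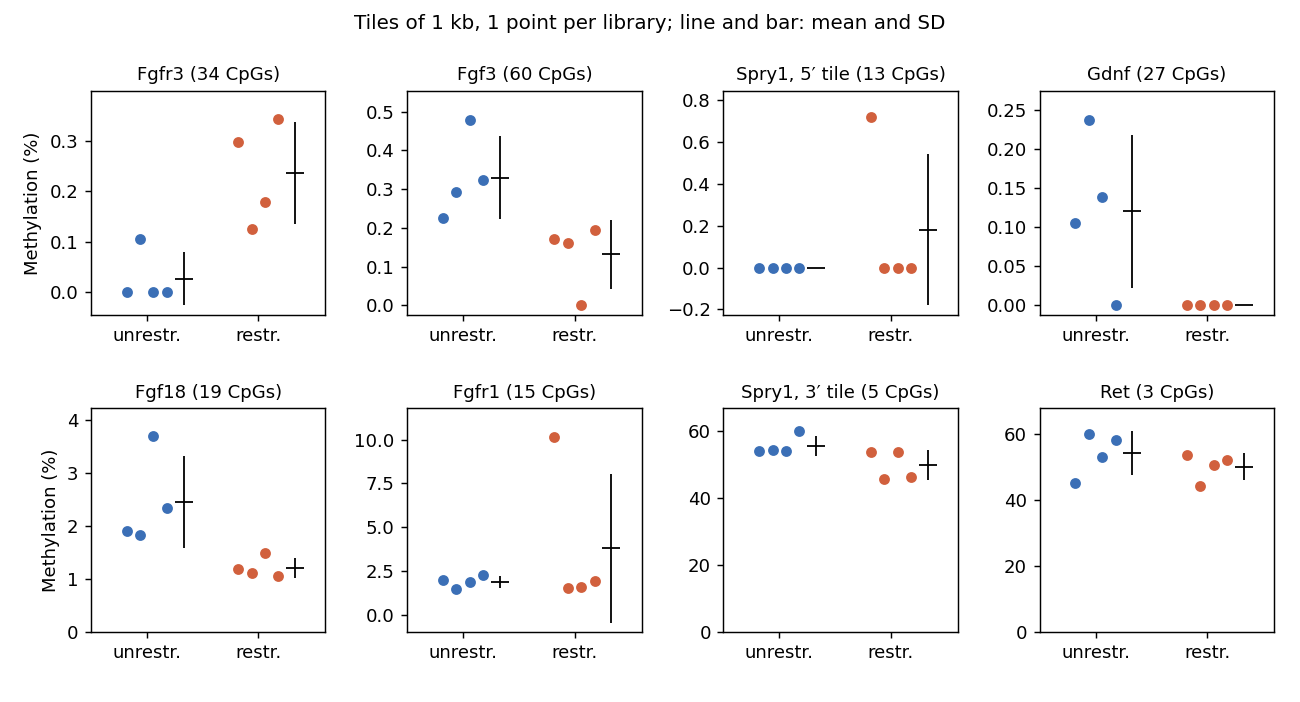
Methylation (%) of 8 tiles in each library (blue unrestricted, orange restricted; black, mean and SD of 4 libraries), each panel on its own linear scale that includes 0. Fgfr3, Fgf3, Fgf18 and the 3′ tile of Spry1 show groups that do not overlap, the Fgfr1 and 5′ Spry1 panels each have restricted library 1 high alone, and Gdnf has all restricted libraries at 0.

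Dusp6, the phosphatase that inactivates ERK, had its start tile (chr10:99263001-99264000, 18 CpGs) at 0.831% in unrestricted library 1 and at 0% in the other 7 libraries, on 7 methylated reads among 5682 (p 0.0473, adjusted p 0.773). These 7 counts lay at CpGs from 713 to 769 bp downstream of the start. CpGs so close can share a read, so fewer molecules may lie behind them, which was not tested. Spred2 had the most methylated body of the group: 3 tiles between 93058.5 and 97058.5 bp inside the gene stood at 97.1 to 98.7% in both groups. Its tile with the largest difference (chr11:19979001-19980000, 5 CpGs) had 87.8, 89.9, 79.3 and 82.4% unrestricted and 82.7, 94, 96.6 and 95% restricted. Restricted library 1 lay within the unrestricted range, the other 3 above it, and the difference was 7.22 ± 4.01 points (SE; p 0.180, adjusted p 0.773). Spred1 had 72 CpGs at 0.057% and 0.104%, and Spry2 had 87 at 0.413% and 0.267%. The tile downstream of Spred3 (chr7:29156001-29157000, 18 CpGs) had 3 methylated reads among 3954, all in unrestricted libraries 2 and 4 (p 0.0819).

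The ETS factors Etv1, Etv4 and Etv5, transcription factors switched on by FGF and Ret signals, had a mean of 4.89% ± 0.28 unrestricted and 5.18% ± 0.06 restricted (SD, n = 4; 77 CpGs). Etv4 (23 CpGs) and Etv5 (17 CpGs) had no CpG above 5%. The Etv4 tile of smallest p (chr11:101772001-101773000, 5 CpGs) had 1.08% and 0.469% in restricted libraries 1 and 2 and 0% in the other 6, on 4 methylated reads among 1580 (p 0.0431, adjusted p 0.773). Those are the 2 restricted libraries that stood apart in read weighting, and the part of this was not tested. Etv1 had 4 CpGs above 80%. Its tile 25418.5 bp inside the gene (chr12:38805001-38806000, 3 CpGs) had 89.4, 95, 88.9 and 97.5% unrestricted and 95.8, 97.6, 93.8 and 96.0% restricted (p 0.317). The groups overlapped there. Upstream of Etv1 (chr12:38778001-38779000, 13 CpGs) there were 2 methylated reads among 3455, in restricted libraries 1 and 4 (p 0.0649).

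Other genes of the same pathway, 45 adaptors, kinases, heparan sulfate enzymes, co-receptors and downstream targets of Ret and FGF signals listed by name, were tested in the same way. Of these, 44 were in the gene table (Araf was not among its autosomes). Among 112 tested tiles none was called, against 0.0177% of all tiles. At an unadjusted p under 0.05 there were 7 (6.25%), against 6.32% of all tiles. Of these 7, 4 were lower (3.32% of all tiles were) and 3 higher (3.0%). The 3 genes with the smallest p were Hs2st1, which sulfates heparan sulfate, Flrt1, a membrane protein that binds FGF receptors, and Sos2, which activates RAS. The Hs2st1 tile (chr3:144561001-144562000, 4 CpGs) had 93.0, 89.0, 91.7 and 88.5% unrestricted and 82.4, 72.9, 84.5 and 77.1% restricted, so that the groups did not overlap (difference -11.3 ± 2.83 points, SE; p 0.00327, adjusted p 0.648). Flrt1 stood at 0.124% and 1.08% (p 0.00445, adjusted p 0.715; the tile also overlaps Macrod1). Sos2 stood at 27.5% ± 15.5 and 15.3% ± 6.61 (SD, n = 4; p 0.00684, adjusted p 0.733; downstream of the gene and overlapping Vcpkmt). Of 29 pathway windows tested none was called, against 0.0849% of all windows. At an unadjusted p under 0.05 there were 2 (6.90%), against 6.96% of all windows.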

How the data were processed

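RRBS libraries of sorted nephron progenitors (4 restricted, 4 unrestricted) were grouped by the labels. Bismark 0.13.1, methylKit, Trim Galore 0.3.3, FastQC and cutadapt are named, with the build mm10 but without settings, in the submitters' processing notes. Each deposited file gives, per CpG cytosine, the count of reads and the percent of them methylated and unmethylated. The count times the percent, rounded, gave the methylated reads (at most 0.0488 from a whole number), and both strands of a CpG were added. PCR copies cannot be removed from RRBS reads, and a read counts at each CpG it covers. Intervals and limits from these counts therefore take in only part of the error.

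CpGs of the autosomes covered 10 times or more in every library were summed into 1 kb tiles and 1.5 kb windows (at least 3 CpGs each). A read that covers several CpGs is counted at each, and only the dispersion among libraries allows for this in the test. Gene positions and strands came from RefSeq GRCm38.p6 tables; where no strand was given (10 members), the window took the gene end with more CpGs. Exons, introns and UTRs were not used here. Units whose reads were all methylated or all unmethylated could not be tested. A logistic regression with diet as its term was fitted to all units, with a likelihood-ratio F test, dispersion moderated by a port of limma's squeezeVar and held at 1 or more, and Benjamini-Hochberg adjustment over all units; an adjusted p under 0.05 was a call. Alternatives used limma 3.58.1 and edgeR 4.0.16 (R 4.3.3). The model was tested on simulated data. Differences give the restricted minus the unrestricted mean.

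The members, lists and tests were chosen with earlier results of these data known. Named by rule were any called member, in each role group the 3 tiles and 3 windows of smallest p and the tile of largest difference with at least 5 CpGs, Fgf9, Fgf20, Gdnf, Ret, 3 pathway genes and Six2. Windows named by this rule and not described in the text are in the closing section.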

Additional observations from a re-analysis of the deposited data

Results flagged for a closer look

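Groups of 4 libraries were checked for the named tiles and windows and the role means, in each diet group. Of 80 such groups, 18 had a library far from the other 3. The rule flags about 1 in 20 groups of normally distributed values, which levels near 0 are not. In all but 2 of the 18 the other 3 libraries were at 0, so that any methylated read set off the flag. Many units were also picked by small p, so the number of flags cannot be set against that rate. The largest was the Fgfr1 tile at 10.2% in restricted library 1, against 1.56 to 1.96% in the other restricted libraries. In the Fgf3 tile restricted library 3 was the lowest, at 0%.

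Restricted library 1 also stood alone in the Spry1 start tile (0.721%) and in the windows of Fgf8 (0.162%) and Fgf9 (0.465%). Restricted library 2 did so in a Gdnf tile (1.67%, chr15:7814001-7815000) and in the Fgf15 window (0.552%), and restricted library 3 in the Etv4 tile at its start end (0.725%). Unrestricted library 1 stood alone in the Dusp6 tile (0.831%) and the Gfra1 window (0.226%). Unrestricted library 2 did so in the tiles of Etv5 (0.187%) and Fgfr3 (0.105%) and in the Fgf9 window (0.398%), and unrestricted library 3 in the Fgf12 window (1.85%). Unrestricted library 4 did so in the Fgf20 tile (0.267%) and in the windows of Dusp6 (0.16%), Fgf20 (0.179%) and Fgfr4 (0.0924%).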

How the results depend on the processing

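The members had no called tile, CpG or window under any of 62 alternatives but one: 1 CpG, in Fgf14, was called without unrestricted replicate 2, so that leaving out each library gave 0 to 1 called CpGs. With all 8 libraries 0.0997% of all CpGs were called, and the shares in the leave-one-out fits are not given here. The mean difference of the members, 0.015 points, was -0.074 with at least 5 reads, -0.190 with each member and -0.071 with each tile weighing the same, -0.758 when weighted by reads, and -0.276 when weighted and without restricted libraries 1 and 2 (added after the data were seen). Without single libraries it ranged from -0.015 to 0.057.

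The labels do not say that replicate numbers pair the samples. Same-numbered libraries correlated at 0.024, -0.100, -0.041 and 0.030 over 5314 tiles, and differently numbered ones at -0.052 to 0.072. No pairing was seen, but with 4 libraries per group a weak or local one could be missed. With the replicate number as a block there were 0 calls, with 1 tile, 1 CpG and no window of the members at an unadjusted p under 0.05, against 1.63% of all tiles, 0.548% of all CpGs and 1.19% of all windows.

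Of 577 recomputed values for the 34 named tiles and windows, 23 reversed, all for units that were not called. With limma these were the Etv5 tile (0.077, log2) and the Gfra1 window (0.026, log2). With the lean of reads towards unmethylated CpGs as a covariate (natural log odds) they were the tiles of Dusp6 (1.06), Gdnf at 7812001 (-0.70) and 7814001 (-1.35), Fgf20 (-0.53) and Fgfr1 at 25514001 (0.24), and the windows of Fgf9 (-0.066) and Gfra1 (0.82). Without single libraries the Fgfr1 tile at 25564001 ranged from -0.200 (without restricted replicate 1) to 2.67 points, the Fgf9 window from -0.100 to 0.116, the Fgf15 window from -0.414 to 0.0053 and the Etv1 window from -0.143 to 0.041. Without restricted libraries 1 and 2 the Fgfr1 tile and the Fgf9 window were -0.128 and -0.100, the Gdnf tile at 7812001 was -0.015 and the Fgfr1 tile at 25514001 3.17. With at least 20 reads the Fgf15 window was 0.055 and the Fgfr1 tile at 25514001 0.0024, and with at least 5 the Fgf8 window was -0.098. The cause was not tested.

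Depth limits the precision. Ret and Fgf7 rest on 8 and 6 CpGs and 10 members have no window.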

Other observations

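Windows of smallest p in their role groups that the text above does not give were all unmethylated. The Spry1 window (51 CpGs) stood at 0.021% and 0.082% (unrestricted first, p 0.0627), Spred1 (42 CpGs) at 0.043% and 0.095% (p 0.401), and Dusp6 (13 CpGs) at 0.040% and 0% (p 0.257). The Fgf8 window (32 CpGs) stood at 0% and 0.040% (p 0.0694), Fgf15 (7 CpGs) at 0.414% and 0.138% (p 0.401), Fgfr1 (21 CpGs) at 0% and 0.050% (p 0.119), Fgfr4 (18 CpGs) at 0.023% and 0.132% (p 0.230), Gfra1 (10 CpGs) at 0.057% and 0% (p 0.290) and Etv1 (18 CpGs) at 0.178% and 0.107% (p 0.453). The windows of Fgf2 (8 CpGs) and Etv4 (12 CpGs) had no methylated read and were not tested.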
